A study of Mus musculus with 6 samples.

Results

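The histone cluster genes of the mouse are those with symbols that begin with Hist1h, Hist2h, Hist3h or Hist4h. Of the 53354 gene symbols and 133944 isoforms with expected counts in these data, 69 genes with 77 isoforms were taken by this rule, and a gene marked as a pseudogene by the ending -ps was left out. They comprise 6 genes of the linker histone H1 and 20 genes of H2A, 18 of H2B, 12 of H3 and 13 of H4, the core histones. Among the H2A genes, Hist1h2aj and Hist1h2al are annotated as pseudogenes but lack the ending -ps and were kept. Hippocampal RNA was sequenced from 3 N-cre and 3 N-cre;Fox1 mice, with 1 library per mouse. All were 3 months old, on a C57BL/6 background, and carried the Nes-Cre transgene, in which the nestin promoter drives Cre in the developing nervous system. N-cre;Fox1 mice also had one copy of an Rbfox1 cDNA in the Gt(ROSA)26Sor locus, behind a CAG promoter and a STOP cassette that Cre removes, in a line made in 129/sv-derived embryonic stem cells. Levels are given as TPM, the share of all transcripts in a library scaled to a fixed sum, computed here from the expected counts and the annotated transcript lengths, so that genes of different length can be compared. Genotypes were compared on the counts with the quasi-likelihood test of edgeR, whose adjusted p is that of Benjamini and Hochberg over all features, and a log2 fold change is N-cre;Fox1 over N-cre.

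A nucleosome holds a core of H2A, H2B, H3 and H4 proteins, around which DNA is wrapped, and H1 binds the DNA between nucleosomes. Cells that copy their DNA make these proteins from clustered genes, whose mRNAs mostly lack introns and a poly(A) tail and end just after a short hairpin, the stem-loop, that is bound by the protein SLBP. The U7 small nuclear RNA guides the cut that makes this end, downstream of the stem-loop. Neurons do not divide, and histone genes outside the clusters, such as H3f3a and H3f3b, supply histones in cells outside S phase, while some cluster genes also give longer mRNAs with a poly(A) tail.

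The hairpin was searched for on the sense strand of the annotated transcripts as 16 bases that begin with GG and end with CC and hold TTNTNA in the middle (N for any base), with at most 1 mismatch between the stems of 6 bases around the loop of 4. It was found in 46 of the 69 histone cluster genes (66.67%), and in 203 of 21810 other protein-coding genes (0.9308%). A hairpin outside the annotated transcript could not be found, and some genes without a match have short transcripts, such as Hist1h4k with 312 bases. The genes without a match are thus not shown to lack a hairpin. Among 48 isoforms the hairpin took 8 distinct forms of 16 bases. The forms found in the 12 histone genes with the highest mean TPM are printed below in capitals with the bases around them, 5′ to 3′, as annotated on mm10, to show how little they differ. The form of Hist3h2ba lies at chr11:58949349-58949364 on the plus strand, that of Hist1h4i at chr13:22040966-22040981 on the minus strand and that of Hist1h4h at chr13:23531458-23531473 on the plus strand.
Hist3h2ba: ccaaaGGCTCTTTTCAGAGCCaccttccaa
Hist1h4i: ttaaaGGCCCTTTTTAGGGCCaccacaaaa
Hist1h4h: ccaaaGGCCCTTTTCAGGGCCgcccacatt
The form of Hist3h2ba was also that of the stem-loops of Hist3h2a, Hist2h2aa2, Hist2h2aa1, Hist1h1c, Hist2h3c2, Hist1h2bg and Hist1h2be. The forms of the H4 genes began with GGCCC or GGTCC, and those of the other families with GGCTC. Hist1h2bc and Hist2h2be, the remaining genes among these 12, held no match in their annotated transcripts.

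Of the 48 isoforms with a stem-loop, 39 run more than 30 bases past it, and 25 run more than 100 bases past it. The annotated end after the stem-loop is 840 bases long in Hist1h1c, 1643 in Hist3h2a and 2445 in Hist4h4. Isoforms annotated past the stem-loop held 99.8% ± 0.0860 (SD, n = 3) of the counts on stem-loop isoforms in N-cre mice, and 99.9% ± 0.0845 (SD, n = 3) of those in N-cre;Fox1 mice. Those that run more than 100 bases past it held 85.5% ± 0.784 (SD, n = 3) and 84.0% ± 2.58 (SD, n = 3). Since 64 of the 69 genes have 1 annotated isoform, reads of an mRNA that ends at the stem-loop are counted on the longer isoform too, and these shares do not tell the forms apart.

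Depth, as the sum of the expected counts, was 40463587 to 62141336 read pairs per mouse, and the histone cluster genes took 0.0108% to 0.0129% of it. The normalized count of Rbfox1, the transgene's gene, was 14813 ± 427 (SD) for the 3 N-cre mice and 14931 ± 1223 (SD) for the 3 N-cre;Fox1 mice, so the genotype labels are not visible in this sum. Neuronal markers and markers of hippocampal pyramidal and granule cells were above 0 in all mice, for example Snap25, a protein of synaptic vesicle fusion, at a mean of 1984 TPM and Neurod6, a transcription factor of pyramidal cells, at 194 TPM. Xist, the RNA of the inactive X chromosome, had normalized counts of 23514 and 22030 in replicate 1 of either genotype and at most 22.2 in the others. Choroid plexus markers were high in N-cre replicate 3 and N-cre;Fox1 replicate 2, where the normalized count of Ttr, the carrier of thyroid hormone made there, was 111007 and 251900, against 274 to 672 in the other 4 mice.

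In the hippocampus a few genes held most of the histone cluster RNA. The TPM of all members summed to 211.9, 227.6 and 239.6 for the N-cre mice, in the order of their replicate numbers, and 234.3, 256.0 and 234.2 for the N-cre;Fox1 mice. The genotypes overlapped, at 226.4 ± 13.9 (SD, n = 3) and 241.5 ± 12.6 (SD, n = 3), but would not without N-cre replicate 3, or without both mice with choroid plexus transcripts, which leaves 211.9 and 227.6 against 234.3 and 234.2. The 6 highest genes made up 83.2% of the summed mean and the 12 highest 94.7%. Of the 69 genes, 15 had a mean TPM of at least 1 and 6 of at least 10, while 15 had no count in any mouse. A count of 0 allows up to 3 counts in a mouse, for counting error only, and RSEM could have given reads that such a gene shares with a near copy to that copy. The 49 genes that did not pass the filter on low counts held 2.37% of the summed mean, and their highest mean TPM was 0.603, in Hist1h2ai.

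**Figure D1:**
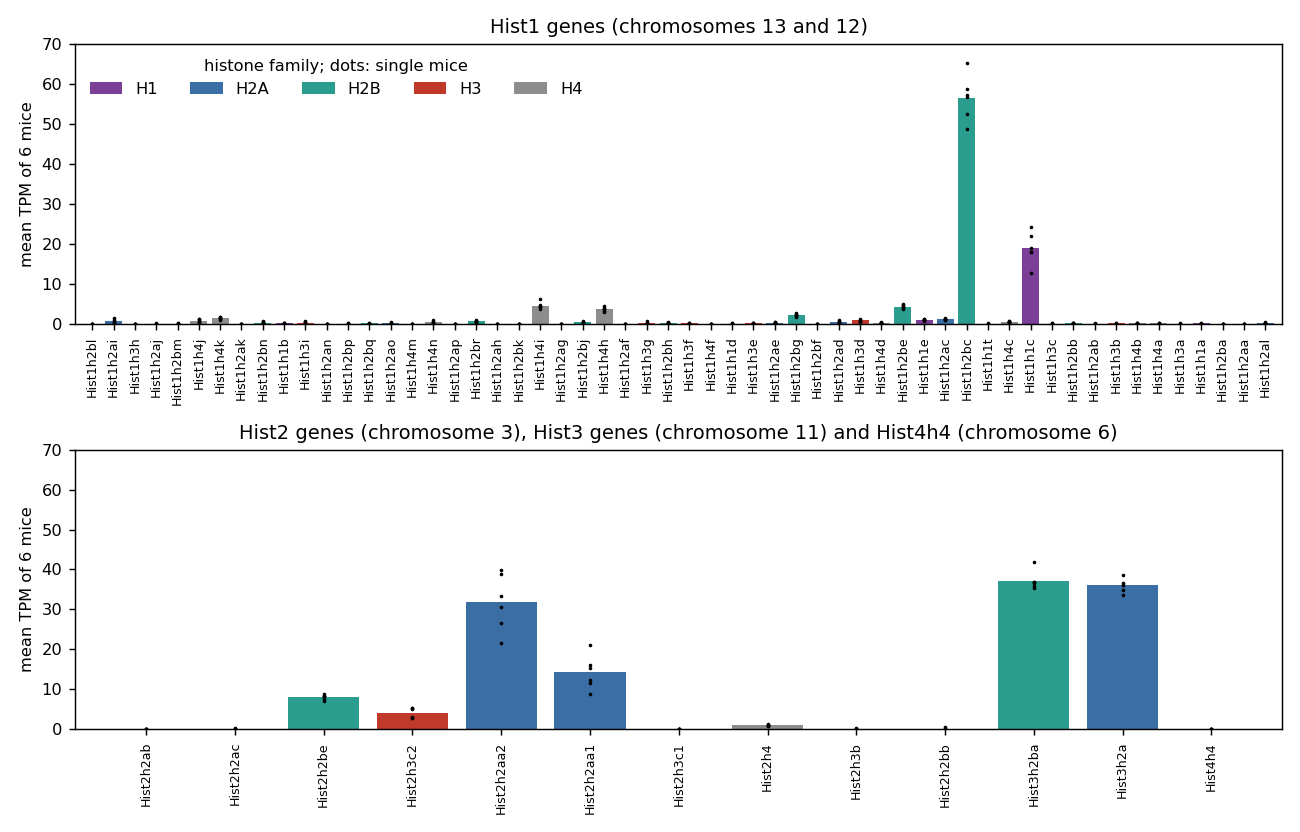
Mean TPM of the 6 mice (bars, linear axis) and the single mice (dots) for the 69 histone cluster genes, in their order along each cluster and coloured by family. Most bars are near 0, and 6 genes have a mean of at least 10 TPM, of which Hist1h2bc is the highest. All Hist1 genes lie on chromosome 13, and the other chromosome named in the title of their panel is an error.

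The families and clusters contributed unequally to the TPM, which was computed with full annotated lengths. H2B genes made up 47.1% of the summed mean TPM, H2A genes 36.4%, H1 genes 8.61%, H4 genes 5.45% and H3 genes 2.46%. The Hist1 cluster, with 56 of the 69 genes, held 43.1% of the summed mean TPM. The 2 genes of Hist3 held 31.3%, the 10 of Hist2 25.5%, and Hist4h4, the only gene of Hist4, 0.0608%. On chromosome 13 the Hist1 genes lie in separate blocks, and the 24 genes at chr13:21715763-22043676 summed to a mean of 9.53 TPM, against 91.2 TPM for the 31 genes at chr13:23531050-23934851. The pseudogene Hist1h2al, at chr13:51202727-51203065, lies outside both blocks. All these shares depend on the annotated lengths. Hist3h2a, annotated 1643 bases past its stem-loop, had more counts in total than Hist1h2bc, at 10486 against 8862. The shares of families and clusters with other lengths were not compared.

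Among the H2B genes, Hist1h2bc (ENSMUSG00000018102.5, chr13:23684199-23692908, plus strand) was the highest histone cluster gene in every mouse. Its TPM was 48.8, 52.5 and 58.8 in N-cre and 57.3, 65.2 and 56.7 in N-cre;Fox1 replicates 1, 2 and 3. With full annotated lengths, its lowest value was above the highest of any other member. Its annotated transcript has 2 exons. Hist3h2ba (ENSMUSG00000056895.4, chr11:58948920-58949533, plus strand) was second by mean TPM, though not in every mouse. It had 35.4, 41.9 and 35.8 TPM in N-cre and 36.7, 36.9 and 36.6 in N-cre;Fox1 mice. The N-cre;Fox1 mice lay within the range of the N-cre mice.

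Hist2h2be (ENSMUSG00000068854.7, chr3:96221119-96223738, plus strand), the only H2B gene among the 12 highest with no 100-base stretch shared with another gene, had 8.82, 7.21 and 7.48 TPM in N-cre and 8.38, 8.40 and 8.33 in N-cre;Fox1 mice. Hist1h2be (ENSMUSG00000047246.7, chr13:23583670-23621124, minus strand) had 3.95, 3.62 and 4.39 TPM in N-cre and 4.07, 4.97 and 4.68 in N-cre;Fox1 mice. Hist1h2bg (ENSMUSG00000058385.8, chr13:23571396-23572013, plus strand) had 2.13, 2.51 and 1.95 TPM in N-cre and 2.12, 2.70 and 1.78 in N-cre;Fox1 mice. In each of these genes the genotypes overlapped. Of the 18 H2B genes, 6 passed the filter on low counts.

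Among the H2A genes, Hist3h2a (ENSMUSG00000078851.4, chr11:58954685-58956830, plus strand), the neighbour of Hist3h2ba, had 33.6, 36.1 and 36.2 TPM in N-cre and 34.8, 36.7 and 38.7 in N-cre;Fox1 mice. The levels of these neighbours overlapped, so their order is not resolved. Hist3h2a overlaps Trim17 on the same strand, 70.2% of its 100-base stretches are found in no other gene, and its count rests in part on how RSEM divided the reads between them.

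Hist2h2aa1 (ENSMUSG00000064220.6, chr3:96245497-96246082, plus strand) and Hist2h2aa2 (ENSMUSG00000063954.7, chr3:96239749-96240276, minus strand) are near-identical copies. Of the 100-base stretches of Hist2h2aa2, 0% are found in no other gene, and of those of Hist2h2aa1 11.7%. Hist2h2aa2 had 21.6, 26.7 and 39.8 TPM in N-cre and 33.4, 38.9 and 30.5 in N-cre;Fox1 mice. Hist2h2aa1 had 15.4, 16.2 and 8.89 TPM in N-cre and 21.0, 12.3 and 11.6 in N-cre;Fox1 mice. N-cre replicate 3 held both the highest value of Hist2h2aa2 and the lowest of Hist2h2aa1, and Hist2h2aa1 took 19.8% to 44.2% of the counts of the pair in a mouse. Their summed TPM was 37.0, 42.9 and 48.7 in N-cre and 54.4, 51.2 and 42.1 in N-cre;Fox1 mice. The sum was 42.9 ± 5.86 (SD, n = 3) and 49.2 ± 6.41 (SD, n = 3), with overlap between the genotypes. Gm20634, which overlaps Hist2h2aa1 on its strand and shares stretches with both genes, had 357 to 632 expected counts per mouse, against 450 to 692 for the pair.

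**Figure D2:**
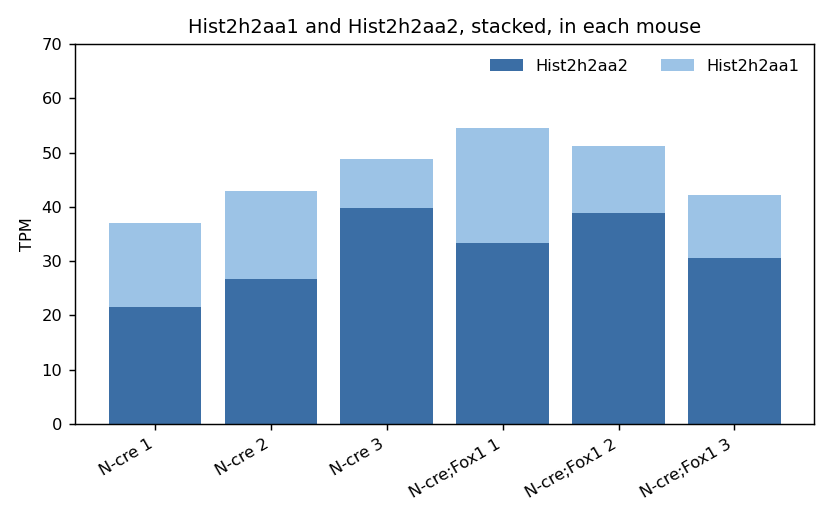
TPM (linear axis from 0) of Hist2h2aa2 and Hist2h2aa1, stacked, in each mouse. The height of the stack is the summed TPM of the near-identical copies, from 37.0 to 54.4, and the division between them differs from mouse to mouse within a genotype.

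All 20 H2A genes overlap an annotated gene on the opposite strand, and whether the counting used strand was not given in the sources used here, so reads of an H2A gene and its antisense partner may not be told apart. Of the 20 H2A genes, 4 passed the filter on low counts and 7 had no count in any mouse, more than in any other family. In the median, 35.5% of the 100-base stretches of an H2A gene were found in no other gene, the lowest of the families.

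The highest H3 gene was Hist2h3c2 (ENSMUSG00000081058.5, chr3:96238108-96239127, minus strand), with 2.76, 2.89 and 5.42 TPM in N-cre and 3.11, 5.06 and 5.32 in N-cre;Fox1 mice. Both genotypes held high and low mice. It made up 71.2% of the TPM of H3 cluster genes, and 38.4% of its 100-base stretches are found in no other gene. Its near copy Hist2h3c1 had no count in any mouse. Of the 100-base stretches of Hist2h3c1, 100% are also found in Gm20634, and of those of Hist2h3c2 61.6%. The levels of both genes thus rest in part on how RSEM divided the reads.

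Of the 13 H4 genes, 6 passed the filter on low counts. Hist1h4i (ENSMUSG00000060639.5, chr13:22040636-22041362, minus strand) had 6.23, 4.25 and 3.58 TPM in N-cre and 4.11, 4.75 and 4.32 in N-cre;Fox1 mice. Hist1h4h (ENSMUSG00000060981.7, chr13:23531050-23531519, plus strand) had 3.74, 4.41 and 3.21 TPM in N-cre and 2.94, 3.59 and 3.83 in N-cre;Fox1 mice. The levels of these genes overlapped each other and between the genotypes. Hist2h4 (ENSMUSG00000091405.2, chr3:96261682-96263311, minus strand), which shares no 100-base stretch with another gene, had 1.04, 1.19 and 1.24 TPM in N-cre and 0.903, 1.10 and 0.852 in N-cre;Fox1 mice. Hist4h4 (ENSMUSG00000096010.2, chr6:136801553-136804415, minus strand), which lies outside the other clusters, had 0.158, 0.128 and 0.121 TPM in N-cre and 0.166, 0.0711 and 0.208 in N-cre;Fox1 mice, from 5 to 15 counts per mouse.

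The linker histone RNA came almost wholly from Hist1h1c (ENSMUSG00000036181.2, chr13:23738808-23740367, plus strand), the gene of H1.2, which held 93.9% of the TPM of the 6 H1 genes. It had 17.9, 19.0 and 21.9 TPM in N-cre and 12.6, 24.2 and 18.0 in N-cre;Fox1 mice. N-cre;Fox1 mice included both the lowest and the highest value. Hist1h1e (ENSMUSG00000051627.3, chr13:23620629-23622558, minus strand), the gene of H1.4, had 0.891, 1.04 and 0.853 TPM in N-cre and 0.649, 1.16 and 1.19 in N-cre;Fox1 mice, and it overlaps an isoform of Hist1h2be on the same strand. Hist1h1t, the linker histone gene of the testis, had 3 counts in total over the 6 mice.

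**Figure D3:**
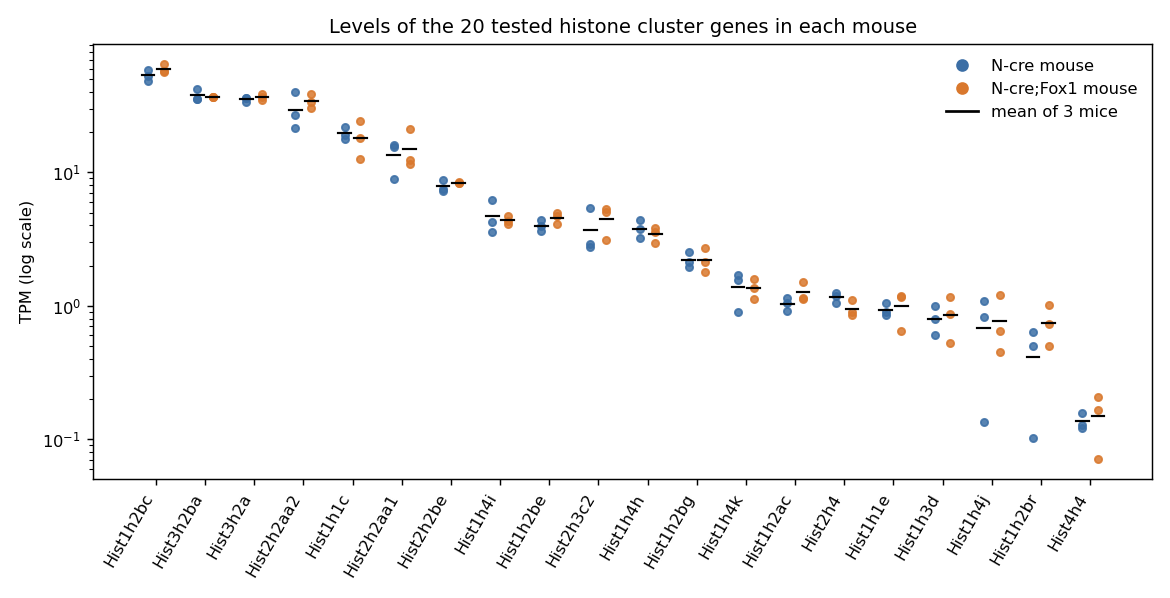
TPM (log axis) of the 20 histone cluster genes that passed the filter on low counts, with a dot for each mouse and a line for the mean of 3 mice per genotype. The genotypes overlap in every gene, and Hist1h2bc lies above all others in each mouse.

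In this order of levels, Hist1h2bc stood apart from the next gene in all 6 mice, and Hist3h2ba, Hist3h2a and Hist2h2aa2 overlapped one another. Hist2h2aa2, Hist1h1c and Hist2h2aa1 overlapped in turn. Hist2h2be lay below the lowest value of Hist2h2aa1 and above the highest of Hist1h4i, and from Hist1h4i to Hist1h4h neighbours overlapped. Hist1h2bg lay below all of these. The order rests on TPM with full annotated lengths. A long annotated end lowers TPM where reads come from an mRNA that ends at the stem-loop, and in Hist3h2a this end is 1643 bases. The order with other lengths was not compared gene by gene.

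Of the 69 genes, 13 pairs of an H2A and an H2B gene lie head to head, with 176 to 306 bases between their starts, so that the same stretch is the upstream region of both. Their levels differed widely in the pairs with a member of at least 1 TPM. Hist1h2bc had a mean of 56.5 TPM and Hist1h2ac, which starts 251 bases away on the other strand, 1.15 TPM. Hist1h2ac is annotated 2010 bases past its stem-loop, and the part of this length in its low TPM was not tested. Hist2h2be had 8.10 TPM and Hist2h2ac, at 239 bases, 0.159 TPM. Hist1h2bg had 2.20 TPM and Hist1h2ae, at 176 bases, 0.281 TPM. In these 3 pairs the H2B gene was higher, and over the 13 pairs the H2B gene was higher in 8, while in 2 pairs both genes had no count. The H2A gene in the pair of Hist1h2bm is the pseudogene Hist1h2aj.

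Promoters from 250 bases before to 50 bases after the start, as given by RefSeq on GRCm38.p6 (the assembly of mm10), were matched for 62 of the 69 genes and searched on both strands. The letters CCAAT were found in a promoter of 53 of these genes (85.48%), against 41.06% of all 27025 genes with promoters. They were found for 100% of the H1, H2A, H2B and H3 genes but 25% of the H4 genes. The letters TATAAA were found for 56.45%, against 15.67% of all genes with promoters. The octamer ATTTGCAT, the letters known for the binding of the factor Oct-1 at H2B genes, was found for 22.58%, against 1.969% of all genes with promoters. It was found for 7 of 18 H2A genes, 7 of 16 H2B genes and 0 genes of the other families. A match in the stretch of a head to head pair counts for each of its genes that has a matched promoter, which Hist1h2bc and Hist2h2be do not. The octamers of the 3 pairs with a member of at least 1 TPM are shown in capitals, on the strand of the gene named.
Hist1h2ac: tgggtgggattATGCAAATgaagtttccag
Hist2h2ac: atgaacgccttATGCAAATtaggtctcaaa
Hist1h2bg: ttgagtcccttATTTGCATagaacctctat
They lie at chr13:23684071-23684100 and chr3:96221062-96221091 on the minus strand and at chr13:23571330-23571359 on the plus strand. The octamer was found as well between Hist1h2ah and Hist1h2bk, which had no count in any mouse.
Hist1h2bk: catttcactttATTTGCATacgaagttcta
This window lies at chr13:22035780-22035809 on the plus strand.

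The annotated transcripts of the genes that passed the filter were longer, with a median of 1202.5 bases for the longest isoform of a gene against 482 bases for the 49 others. An isoform that runs more than 100 bases past the stem-loop was annotated for 13 of 20 and 10 of 49 genes. Longer transcripts collect more reads at the same TPM, and the part of this in passing the filter was not tested. GCATG, the core of the letters that Rbfox1 binds in RNA, was found 0.333 times per kb in the transcripts of the histone cluster genes and 0.948 times per kb in all 58797 annotated protein-coding transcripts. For the full letters TGCATG the values were 0.173 and 0.283 per kb, and 6 of the 20 tested genes held them, such as Hist2h2be and Hist4h4.

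No histone cluster gene passed the test between the genotypes. Of the 20 genes tested, 0 passed 0.05 by the adjusted p of edgeR over all 18924 genes, of which 0.0264% did. At an unadjusted p under 0.05 the count was 0 of 20, against 6.19% of all genes. In 0 of 20 did the normalized counts of the genotypes not overlap, against 12.2% of all genes. The counts past an adjusted and past an unadjusted p of 0.05 were also 0 in DESeq2's Wald test and in limma-voom. Among all 18924 genes, the unadjusted threshold was passed by 3.84% in DESeq2's Wald test and by 6.2% in limma-voom. The log2 fold change was above 0 in 13 genes and below 0 in 7, with a median of 0.10, while the median over all genes tested was 0.00 and 50% of them were above 0. For the H2A genes the median was 0.18 over 4 genes, for H2B 0.12 over 6, for H3 0.19 over 2, for H4 -0.11 over 6 and for H1 0.00 over 2. Without N-cre;Fox1 replicate 3 the median of the tested members was 0.01, without N-cre replicate 3 it was 0.05, and without both mice with choroid plexus transcripts it was 0.05.

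**Figure D4:**
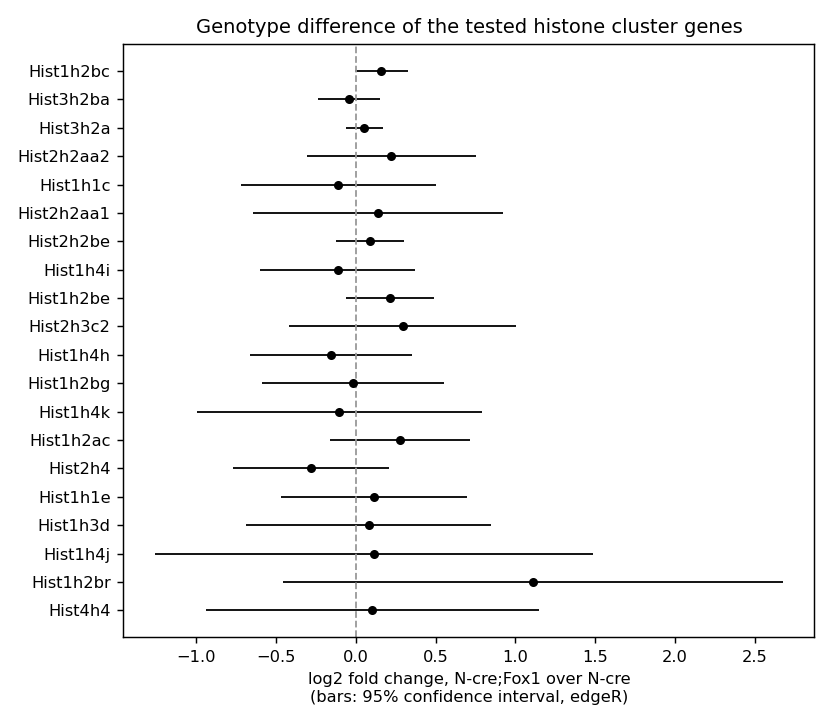
The log2 fold change, N-cre;Fox1 over N-cre, of the 20 tested genes (points) with its 95% confidence interval from edgeR (bars), ordered by mean TPM from the top. Every interval includes 0, and the intervals are narrow for Hist3h2a, Hist1h2bc and Hist3h2ba and wide for Hist1h2br and Hist1h4j.

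The counts bound the differences of the abundant genes. For Hist1h2bc the log2 fold change was 0.16 with a 95% interval from -0.01 to 0.33, and the adjusted p by edgeR was 0.799, the lowest among the members. For Hist3h2a it was 0.05, from -0.06 to 0.17, and for Hist3h2ba -0.04, from -0.24 to 0.15. Hist2h2be had 0.09, from -0.12 to 0.30, and Hist1h2be 0.21, from -0.06 to 0.49. In these 5 genes the interval lay within a 1.5-fold change in either direction, and in 16 of the 20 it lay within a doubling and a halving.

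For the other genes larger differences cannot be told from none at this depth and number of mice. Hist1h1c had a log2 fold change of -0.11, from -0.72 to 0.50, Hist2h2aa2 of 0.22, from -0.31 to 0.75, and Hist2h2aa1 of 0.14, from -0.64 to 0.92. Hist2h3c2 had 0.29, from -0.42 to 1.01, which became 0.67 without N-cre replicate 3, and Hist2h4 -0.28, from -0.77 to 0.21, the lowest value among the members. The highest was 1.11, from -0.46 to 2.68, in Hist1h2br, a gene named after its values were seen, with 3.37 counts in N-cre replicate 1 and 14.0 to 39.7 in the other mice. Hist1h2br is near identical to Hist1h2bq, and 8.20% of its 100-base stretches are found in no other gene.

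At the level of isoforms 22 of the 77 were tested, and 0 passed 0.05 by the adjusted p of edgeR, as did 0% of all 50556 isoforms. At an unadjusted p under 0.05 there were 0 of 22, against 4.78% of all isoforms. Shares within a gene were compared for the 6 isoforms of Hist1h2be and Hist1h2br, the tested members with several isoforms. Hist1h2be-203, which holds no stem-loop match and overlaps Hist1h1e, made up 38.7%, 37.3% and 36.2% of the counts of Hist1h2be in N-cre and 30.5%, 33.4% and 24.0% in N-cre;Fox1 mice. The genotypes did not overlap, at a difference of -8.11 percentage points and p = 0.1 in a two-sided exact permutation test, the smallest p that 3 against 3 mice allow, or 0.6 after Benjamini-Hochberg adjustment over the 6 isoforms. For the other 5 isoforms the genotypes overlapped.

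Several histone genes were highest in the mice with choroid plexus transcripts. Of the 20 tested members, 6 had the highest normalized count of their genotype both in N-cre replicate 3 and in N-cre;Fox1 replicate 2, as did 15.7% of all genes. They were Hist1h1c, Hist1h2bc, Hist1h2be, Hist1h2br, Hist2h2aa2 and Hist2h4, noted after their values were seen. All 4 choroid plexus markers were highest in these mice, and their summed TPM was 4225 and 9687 there and 21.9 to 37.4 in the other 4. The part of choroid plexus RNA in these histone levels was not tested. With both mice left out, 0 members passed 0.05 by the adjusted p of edgeR, and Hist1h2bc had a log2 fold change of 0.17 and Hist2h2aa2 of 0.41, each with an unadjusted p under 0.05, as 5.74% of all genes then had, but adjusted values of at least 0.654. Hist2h3c2 then had a log2 fold change of 0.58 with an unadjusted p of 0.0582 by edgeR. The values of Hist2h2aa2 rest on how RSEM divided the reads between it and its near copy Hist2h2aa1. In N-cre mice the summed TPM of this pair was highest in replicate 3, at 48.7. In N-cre;Fox1 mice the sum was highest in replicate 1, at 54.4, against 51.2 in replicate 2.

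**Figure D5:**
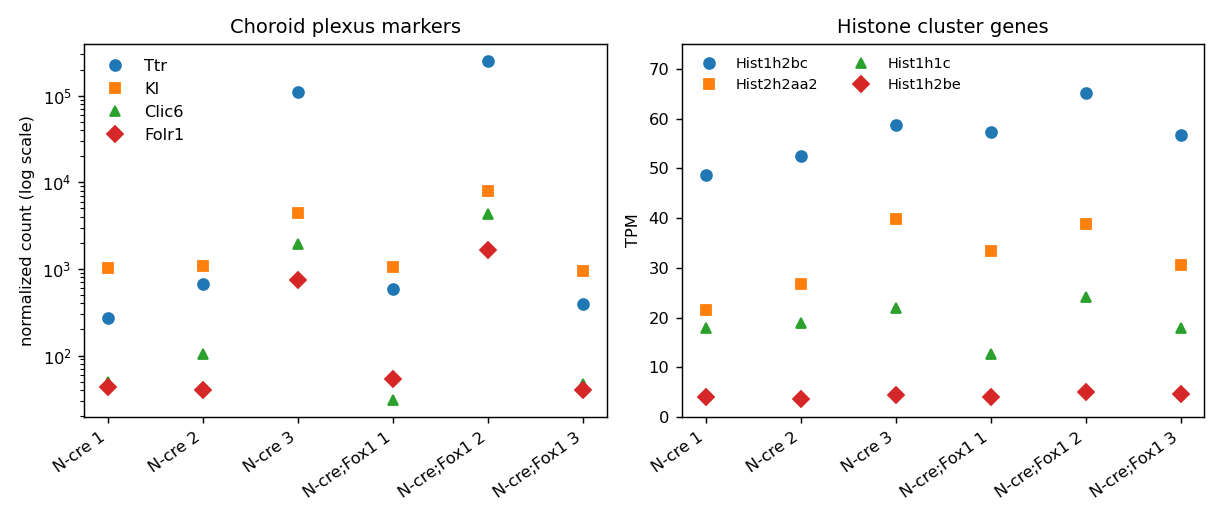
Left, normalized counts (log axis) of 4 choroid plexus markers in each mouse, and right, TPM (linear axis from 0) of 4 histone cluster genes in the same mice. The markers are high in N-cre replicate 3 and N-cre;Fox1 replicate 2, in which Hist1h2bc has 58.8 and 65.2 TPM. The 4 histone genes were picked from the 6 of 20 tested members that were highest of their genotype in both of these mice. Hist2h2aa2 is a near copy of Hist2h2aa1, and the summed TPM of that pair was highest in N-cre;Fox1 replicate 1, at 54.4.

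Genes that act on histone mRNA and histones were compared beside the members. Of the 27 tested genes listed for histone mRNA processing, 0 were at an unadjusted p under 0.05 by edgeR, against 6.19% of all genes. Their log2 fold changes lay between -0.12 and 0.18. Srrt, Snrpb and Sympk were the highest of them, at a mean of 192, 108 and 102 TPM. Of the 20 tested histone chaperones, 1 had an unadjusted p under 0.05, against 6.19% of all genes. It was Chaf1a, a subunit of the complex that places new histones on copied DNA, with a log2 fold change of -0.33 (edgeR, adjusted p = 0.693).

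Histone genes outside the clusters were more abundant than those in the clusters. The 15 genes of this list summed to a mean of 1070 TPM, 4.58 times the summed mean of the cluster genes. H3f3a had a mean of 329 TPM, H2afz 222, H3f3b 187 and H1f0 96.4. Thus the mean of H1f0 was above that of Hist1h1c, at 18.9 TPM, and H3f3a alone was above all H3 cluster genes. Of 11 that were tested, 1 had an unadjusted p under 0.05, against 6.19% of all genes, H3f3b, with a log2 fold change of -0.14 (edgeR, adjusted p = 0.760). In 4 of the 11 the genotypes did not overlap, against 12.2% of all genes, with H2afy higher in N-cre;Fox1 mice (6.06% of all genes) and H3f3b, H2afy2 and H2afz lower (6.11%).

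Genes of S phase, in which the cluster genes are used, and of mitosis were all tested. Of these 25 genes, 2 were at an unadjusted p under 0.05 by edgeR, against 6.19% of all genes, and 0 at an adjusted one. Top2a, which untangles DNA in dividing cells, had 61.8, 78.2 and 69.3 normalized counts in N-cre and 107, 93.8 and 119 in N-cre;Fox1 mice. It had a log2 fold change of 0.62 (edgeR, adjusted p = 0.651), and Ccne1, a cyclin of the start of S phase, of 0.25 (adjusted p = 0.678). In 6 of the 25 the genotypes did not overlap, against 12.2% of all genes. In 5 of the 25 all N-cre;Fox1 mice were above the N-cre mice, against 6.06% of all genes.

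Cell markers were compared because hippocampi can differ in their cells, and in bulk RNA fewer cells of a type and less RNA per cell cannot be told apart. The astrocyte markers Aqp4, a water channel, and Gja1, a gap junction protein, had log2 fold changes of 0.21 and 0.10 with an unadjusted p under 0.05 (edgeR, adjusted p = 0.595 and 0.756), as 6.19% of all genes had. The third marker, Slc1a3, a glutamate transporter, had -0.02. The summed TPM of the 3 astrocyte markers ranged from 573 to 586 over the N-cre mice and from 583 to 621 over the N-cre;Fox1 mice. Neuroblast markers, which would be found with dividing precursors of the dentate gyrus, summed to between 10.9 and 12.6 TPM in the N-cre mice and between 10.3 and 14.3 in the N-cre;Fox1 mice. Of 5 tested RNAs without a poly(A) tail or with an unusual end, 0 had an unadjusted p under 0.05, against 6.19% of all genes. Neat1 had a mean of 146 TPM, Malat1 of 92.8 TPM and Rn7sk of 5.09 TPM.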

How the data were processed

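Total RNA libraries (TruSeq Stranded Total RNA) of 6 hippocampi were sequenced as read pairs. The authors trimmed the reads with Cutadapt 1.18, aligned them to mm10 with STAR 2.5.2b and deposited the expected counts of isoforms that RSEM 1.3.0 estimated with a GENCODE annotation, without normalization or filter. Depth was 40463587 to 62141336 read pairs per mouse. Expected counts were summed by gene symbol and rounded, filtered with filterByExpr of edgeR 4.0.16 (minimum count 10, minimum total 15), normalized by TMM and tested with the quasi-likelihood test in R 4.3.3, with Benjamini-Hochberg adjustment over all features and a threshold of 0.05. Lengths and positions came from GENCODE's later annotation of mm10, and TPM from these lengths. Isoforms with no length, 499 in all, were left out of TPM. Genes were compared for shared 100-base stretches. For isoform shares, SciPy 1.17.1 gave exact permutation tests.

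Members named are the 12 with the highest mean TPM, tested H1, Hist2, Hist3 and Hist4 genes, those with an unadjusted p under 0.05, and those whose genotypes do not overlap. From the other lists, genes with an unadjusted p under 0.05 (up to 3) or among the 3 highest were named. The members and lists were chosen with earlier results of these data known. The alternatives tried were scaling by DESeq2's size factors or upper quartiles, other filters, the Wald test of DESeq2 1.42.0, voom of limma 3.58.1, unrounded counts, a replicate block, stricter thresholds, other TPM lengths, and each mouse left out. Leaving out both mice with choroid plexus transcripts was added after the data were seen. The fits were tested on simulated data. Both the depth and the 3 mice per genotype limit the precision. The authors' test, EBSeq, was not run.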

Additional observations from a re-analysis of the deposited data

How the results depend on the processing

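The count of histone cluster genes or isoforms with an adjusted p under 0.05 was 0 under each of the 17 alternatives for either. The count of genes of the other lists was 0 under 15 alternatives and 1 without a filter and in DESeq2's Wald test, Aqp4 in both. The median log2 fold change of the tested members, 0.10, was 0.13 without a filter, where 54 genes were tested, 0.053 without both mice with choroid plexus transcripts, and 0.013 to 0.12 with each mouse left out in turn. The difference in summed TPM, N-cre;Fox1 minus N-cre, was 15.1, 7.87 to 21.7 with each mouse left out in turn (7.91 without N-cre replicate 1, 7.87 without N-cre;Fox1 replicate 2) and 14.5 to 17.1 under the other alternatives. The difference in the share of counts past the stem-loop, 0.04 percentage points, was -1.56 for isoforms more than 100 bases past it and -1.56 for the mean of the genes' shares. With each mouse left out, the sign of the log2 fold change turned for Hist1h1c (-0.35 to 0.10), Hist1h1e (-0.034 to 0.34), Hist1h2bg (-0.18 to 0.11), Hist1h4i (-0.27 to 0.17), Hist2h2aa1 (-0.19 to 0.30), Hist3h2ba (-0.078 to 0.042) and Hist4h4 (-0.22 to 0.44). It also turned for Hist4h4 in limma-voom, at -0.033, and for Hist1h1e without both mice with choroid plexus transcripts, at -0.050. Without N-cre replicate 3, 3 members had an unadjusted p under 0.05, Hist1h2bc, Hist2h2aa2 and Hist2h3c2, as did 4.71% of all genes. Hist1h2be had one without N-cre;Fox1 replicate 1, as did 9.16% of all genes. Without a filter Hist1h2bc and Hist1h4a, which had 7.88 counts in total, had one, as did 5.23% of all genes. With each mouse left out the log2 fold change lay between 0.12 and 0.67 for Hist2h3c2 and between 0.044 and 0.50 for Hist2h2aa2, without a turn of sign. The labels do not say whether the replicate numbers pair the mice. Deviations of mice with the same number correlated at 0.38, -0.10 and -0.21 over genes, which does not settle it. With the replicate block 0 members had an adjusted p under 0.05 by edgeR and 1 an unadjusted one, as 5.57% of all genes had. The median log2 fold change of the members was then 0.07. For genes with few counts, such as Hist4h4 and Hist1h4j, depth limits what can be seen.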
